A study of Mus musculus with 24 samples.

Results

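The enzymes described here attach glutathione, glucuronic acid or sulfate to foreign and endogenous compounds. They are the cytosolic glutathione S-transferases (Gst), the microsomal ones (Mgst), the UDP-glucuronosyltransferases (Ugt) and the sulfotransferases (Sult). A gene was taken when its symbol in the platform annotation began with one of these family names and at least 1 probe set was assigned to it alone. This gave 46 genes of the 18193 measured. They comprised 3 Gsta, 7 Gstm, 2 Gstp, 4 Gstt, 4 Gsto, Gstz and Gstk, 3 Mgst, 8 Ugt2, 2 Ugt3, 6 Sult1, 3 Sult2 and 4 other Sult genes. Where a gene had several probe sets, the one with the highest mean over the 24 arrays stood for it. The Ugt1a genes share probe sets and are therefore not among the 46.

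RNA was measured on Affymetrix arrays from crypts and villi of the mouse small intestine in 4 genotypes, with 3 arrays in each of the 8 groups. QKO tissue was Rb-/- and E2f1-/-, E2f2-/- and E2f3-/-, TKO tissue lacked the same 3 E2f genes with Rb present, Rb tissue was Rb-/- alone, and WT tissue was wild type. All mice were of mixed C57BL/6;FVB background and 2 months old. Every group, WT included, had received beta-napthoflavone by intraperitoneal injection 7 days before the tissue was taken, so no untreated tissue was compared. The labels name neither a Cre driver nor whether same-numbered crypt and villus arrays came from 1 animal, and p-values measure only the spread between these arrays, which may be partly technical.

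Conjugation is the second phase of detoxification: a first-phase enzyme such as a cytochrome P450 exposes a reactive group, a transferase adds a bulky polar group, and membrane pumps export the product. Enterocytes, the absorptive cells that line the villus, carry much of this machinery in the intestine, whereas crypts hold the stem cells and dividing progenitors. beta-Napthoflavone is a ligand of the aryl hydrocarbon receptor, which binds xenobiotic response elements, and several transferase genes also respond to Nrf2 through antioxidant response elements. Rb restrains the E2f transcription factors, which drive genes of the cell cycle.

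Of the 46 genes, 34 had a highest group mean above 5.05, the median of all deposited log2 values, compared with 12929 of all 18193 genes. The other 12 lay between 2.69 and 4.39 in every group mean, near the bottom of the scale, and, apart from Gsto2 and Ugt2b37, are given only in counts: Gsto2, Gstt4, Sult1c1, Sult1e1, Sult2a2, Sult2a8, Sult3a1, Sult4a1, Sult6b1, Ugt2b1, Ugt2b37 and Ugt3a2. Among the 34 brighter genes, the highest group mean was in WT villi for 17, in QKO villi for 5, in QKO crypts for 5, in TKO crypts for 3, in TKO villi for 2, in Rb villi for 1 and in WT crypts for 1.

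Many of these genes lie close together on a chromosome, which matters for how independent their values are. By RefSeq positions on GRCm38.p6, 34 of the 46 lay within 1 Mb of another of the 46, in 9 clusters. Such genes are called neighbours here, whatever other genes lie between them. Chromosome 5 held 11 in the order Ugt2b34, Ugt2b1, Ugt2b35, Ugt2b36, Ugt2b5, Ugt2b37, Ugt2a3, Ugt2b38, Sult1b1, Sult1d1 and Sult1e1. Chromosome 3 held 7 in the order Gstm5, Gstm7, Gstm6, Gstm3, Gstm2, Gstm1 and Gstm4, and chromosome 10 held 4 in the order Gstt3, Gstt1, Gstt4 and Gstt2. These are families of close paralogs, so probe sets may detect more than 1 member, and 2 of the 46 probe sets carry the _s_at suffix and 2 the _x_at suffix that mark such sharing.

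Promoter sequences were available from RefSeq (GRCm38.p6) for 41 of the 46 genes. The 250 bases before the annotated start are shown for genes on which the results below turn: Gstk1 and Gstt1, which were lower in both Rb and TKO villi than in WT villi, Gstm5, which was higher in QKO than in Rb tissue in both compartments, and the chromosome 5 neighbours Ugt2b38 and Sult1d1. Capitals mark matches on either strand to the antioxidant response element TGACNNNGC, the xenobiotic response element core GCGTG or the E2F site TTTNNCGC.
Gstk1, chr6:42245685-42245934, plus strand: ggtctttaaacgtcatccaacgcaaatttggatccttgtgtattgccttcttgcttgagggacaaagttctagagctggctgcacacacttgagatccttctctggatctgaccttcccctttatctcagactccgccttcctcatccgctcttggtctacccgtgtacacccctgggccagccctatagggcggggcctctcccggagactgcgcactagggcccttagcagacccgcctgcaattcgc
Gstt1, chr10:75797732-75797981, minus strand: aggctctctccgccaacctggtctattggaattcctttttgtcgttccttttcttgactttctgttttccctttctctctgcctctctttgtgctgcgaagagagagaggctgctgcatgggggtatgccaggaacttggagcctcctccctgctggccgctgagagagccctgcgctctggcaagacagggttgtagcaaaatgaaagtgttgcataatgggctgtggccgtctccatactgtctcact
Gstm5, chr3:107895604-107895853, plus strand: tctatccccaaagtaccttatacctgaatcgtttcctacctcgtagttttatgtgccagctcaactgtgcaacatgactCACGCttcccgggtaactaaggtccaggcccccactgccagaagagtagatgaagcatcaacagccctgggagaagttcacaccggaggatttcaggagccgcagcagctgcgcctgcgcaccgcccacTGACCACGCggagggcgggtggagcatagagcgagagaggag
Sult1d1, chr5:87569007-87569256, minus strand: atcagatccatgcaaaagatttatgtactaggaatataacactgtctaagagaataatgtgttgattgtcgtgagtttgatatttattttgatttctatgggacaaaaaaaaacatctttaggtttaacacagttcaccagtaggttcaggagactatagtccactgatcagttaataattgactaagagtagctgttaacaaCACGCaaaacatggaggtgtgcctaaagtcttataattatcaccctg
Ugt2b38, chr5:87424204-87424453, minus strand: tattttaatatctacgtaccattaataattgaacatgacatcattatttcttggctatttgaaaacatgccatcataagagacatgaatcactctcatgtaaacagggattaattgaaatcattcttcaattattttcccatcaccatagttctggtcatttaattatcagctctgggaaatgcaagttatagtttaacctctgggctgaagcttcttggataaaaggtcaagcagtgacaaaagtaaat

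The Gstt1 window belongs to a start inside the annotated span of the gene, which reaches 75798584 on chromosome 10. The Gstm5 window held the antioxidant response element 42 bases before the start and the xenobiotic core 171 and 38 bases before it, the last lying inside the antioxidant match. The Sult1d1 window held a xenobiotic core 47 bases before the start, and the windows of Gstk1, Gstt1 and Ugt2b38 held none of the 3 motifs. Some genes have several starts, giving 53 windows in all. The antioxidant element was in 7.5% of them (Gsta3, Gstm5, Gstm7 and Mgst1), against 10.2% of 32851 windows of all genes. The xenobiotic core was in 18.9% against 28.2%, from 9 genes including Gsta2, Gstm1, Gstp1, Sult1b1 and Sult2b1. The E2F site was in 1.9% against 4.3%. These matches describe letters in the windows, not binding.

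Several features of the arrays bear on every genotype comparison. The added poly-A control transcripts averaged 8.97 to 10.91 (log2, 27 probe sets) on QKO and TKO arrays and 5.18 to 6.67 on Rb and WT arrays, so E2f status and this difference in array preparation cannot be told apart. The array labelled Rb crypts 2 had Rb1 at 10.25 and the array labelled WT crypts 3 had it at 8.46, against their labels; the other QKO and Rb arrays had 8.13 to 9.36 and the other TKO and WT arrays 9.71 to 10.93. E2f1 and E2f3 were each measured at overlapping levels with and without the deletions, and the labels do not say which part of each gene is removed, so these probe sets check nothing. E2f2 was 7.94 to 8.52 in QKO and TKO crypts and 9.0 to 9.59 in Rb and WT crypts, with no overlap. In villi it was 7.12 to 7.45 in QKO, 7.74 to 8.08 in TKO, 8.88 to 8.93 in Rb and 7.24 to 8.1 in WT, so TKO and WT overlapped. The Y-linked gene Eif2s3y was high on all 6 QKO arrays, 2 of 3 TKO arrays in each compartment and 2 of 3 Rb villus arrays, and low on all WT and Rb crypt arrays. Only TKO villi, TKO crypts and Rb villi thus held both sexes, and a sex covariate takes its estimate from these groups alone. Enterocyte markers averaged 13.37 to 14.01 in villi and 12.12 to 13.10 in crypts, and dividing-cell markers 7.94 to 8.29 in WT villi and 10.90 to 11.44 in WT crypts. In whole compartments, fewer cells of a type and less RNA per cell cannot be told apart.

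Conjugation enzymes were raised along the crypt to villus axis of WT intestine. In WT, 21 of the 46 genes were higher in villi than in crypts and 1 was lower at a limma adjusted p under 0.05, beside 37.4% of all genes called in either direction and 18.8% called higher. The median difference, villi minus crypts, was 0.47 (log2) over the 46 genes and 0.08 over all genes. Of the 7 Gstm genes 5 rose, of the 8 Ugt2 genes 4, and of the 3 Mgst, 4 Gstt, 6 Sult1 and 3 Sult2 genes 2 each, whereas neither Gstp gene and none of the other Sult genes passed. Without WT crypts 3 and Rb crypts 2, 20 were higher and 1 lower.

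Among the glutathione transferases, Gstk1, a peroxisomal and mitochondrial member, had log2 levels of 12.11, 12.29 and 12.45 in WT villi, against 10.42, 10.54 and 10.31 in WT crypts. The villus values all lay above the crypt values, and the difference was 1.87 ± 0.30 (SE, limma adjusted p = 3.9e-05). Gstt1, which acts on small halogenated compounds, had 11.28, 11.38 and 11.87 in WT villi, against 9.65, 9.62 and 9.98 in WT crypts, a difference of 1.75 ± 0.26 (adjusted p = 2.2e-05) with no overlap. The mu-class genes Gstm1, Gstm4, Gstm6 and Gstm7 differed by 1.94, 1.72, 1.63 and 1.497, each with every WT villus array above every WT crypt array. The second, dimmer probe set of Gstm7 gave 0.03 (adjusted p = 0.89). The alpha-class gene Gsta2 rose by 2.32 ± 0.72 (adjusted p = 0.015), with 8.93, 9.06 and 9.54 in WT villi, against 6.92, 6.07 and 7.57 in WT crypts. That call was lost without WT villi 3 or WT crypts 2, where the highest adjusted p was 0.077. Gsta4, which clears the lipid peroxidation product 4-hydroxynonenal, did not pass, at 1.09 ± 0.44 (adjusted p = 0.057).

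The pi-class gene Gstp1 gave a difference of 0.10 ± 0.12 (95% interval -0.16 to 0.36). The lone gene lower in WT villi, named after its value was seen, was Gstz1, the maleylacetoacetate isomerase of tyrosine breakdown, with 8.38, 8.52 and 8.48 in WT villi, against 8.86, 8.90 and 9.02 in WT crypts. All its villus arrays lay below its crypt arrays, and the difference was -0.47 ± 0.14 (adjusted p = 0.0096).

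Among the glucuronosyltransferases, Ugt2b38 rose most in WT, by 2.56 ± 0.66 (adjusted p = 0.0042), with 6.30, 7.30 and 7.42 in WT villi, against 4.78, 4.17 and 4.38 in WT crypts. Ugt2b5 rose by 2.12 ± 0.67 (adjusted p = 0.017) and Ugt2a3 by 1.26 ± 0.21 (adjusted p = 6.9e-05), while Ugt2b34 rose by 0.78 ± 0.11 (adjusted p = 8.9e-06). The Ugt2b5 call was lost without WT villi 3, WT crypts 1 or WT crypts 2 (highest adjusted p = 0.08), whereas those of Ugt2b38 and Ugt2a3 were kept whichever array was left out. Of the 3 probe sets shared by the Ugt1a genes, which include the bilirubin-conjugating enzyme Ugt1a1, 2 were higher in WT villi in the fit over every probe set, one by 0.89 ± 0.17 (adjusted p = 0.00027) and another by 0.49 ± 0.16 (adjusted p = 0.02). Of all 45101 probe sets, 29.4% were called in that fit.

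Among the sulfotransferases, Sult1b1, a phenol and thyroid hormone sulfotransferase, had 12.61, 12.87 and 12.95 in WT villi, against 11.59, 11.21 and 11.64 in WT crypts. It rose by 1.33 ± 0.19 (adjusted p = 1.4e-05). Sult2b1, which acts on cholesterol and other hydroxysteroids, rose by 1.24 ± 0.30 (adjusted p = 0.0026), and Sult1d1, a catecholamine sulfotransferase in mice, by 0.89 ± 0.19 (adjusted p = 0.00072). In all 3, every WT villus array exceeded every WT crypt array. Along the chromosome 5 cluster the difference varied from neighbour to neighbour: it was 2.12 in Ugt2b5, -0.04 in Ugt2b37 and 1.26 in Ugt2a3, the middle one of which is among the dim genes.

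**Figure D1:**
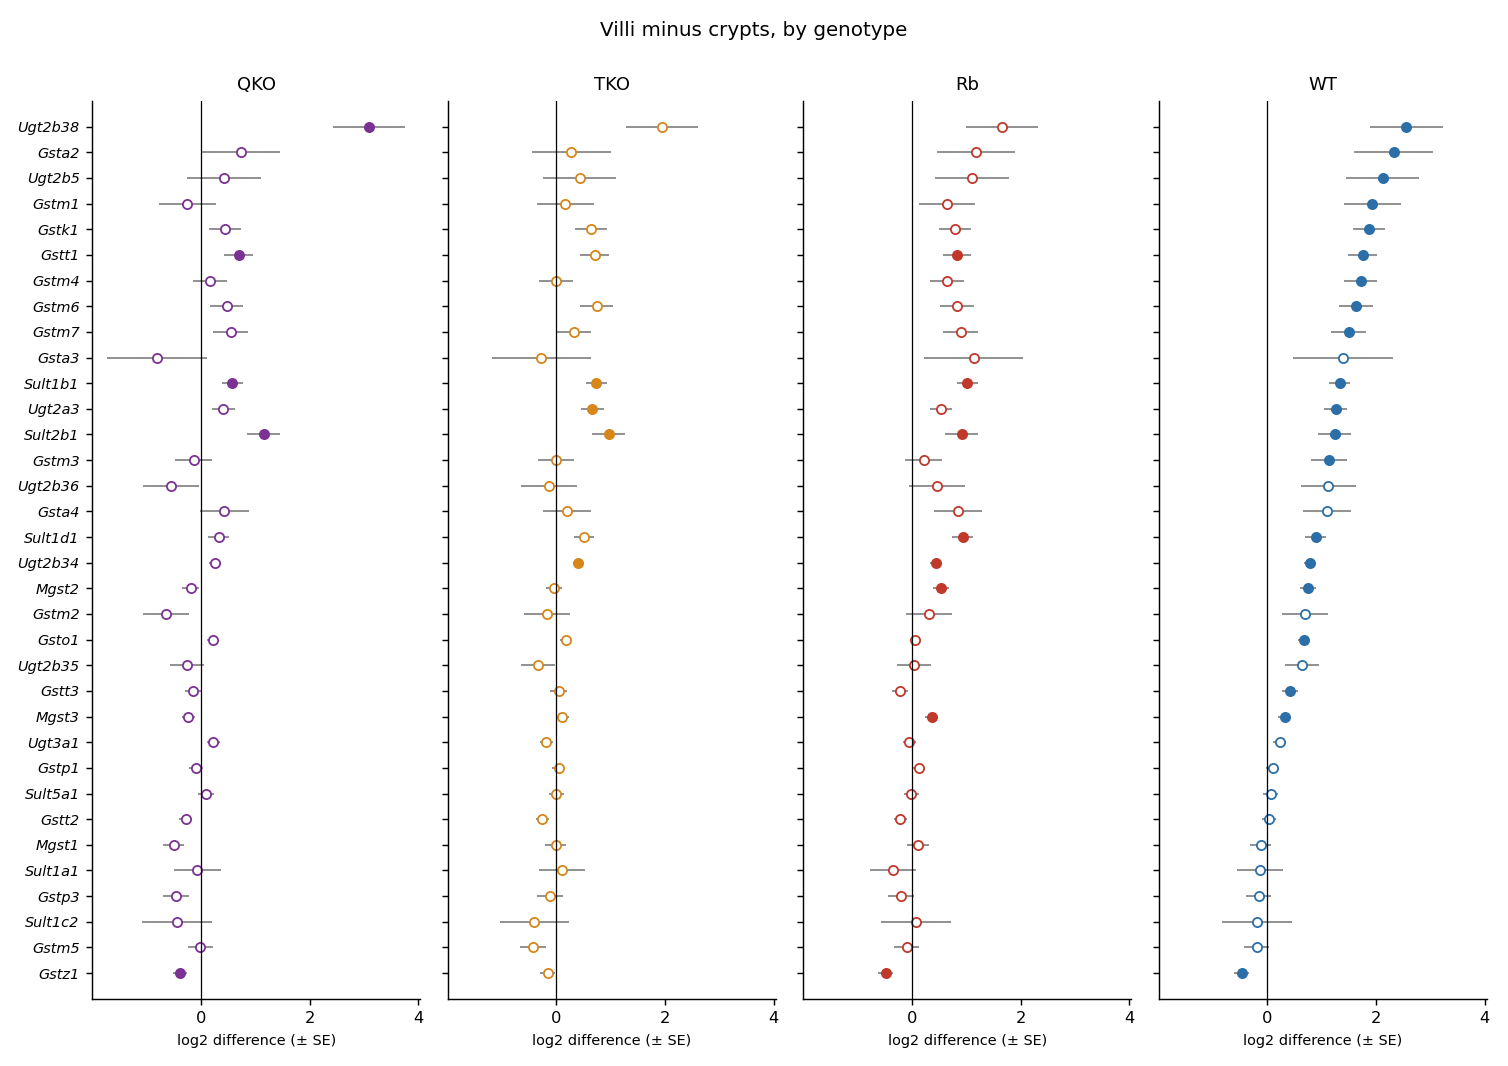
Log2 difference between villi and crypts (x axis, ± SE from the fit) for the 34 brighter conjugation enzymes (rows), in QKO, TKO, Rb and WT tissue from left to right on 1 scale, with filled points where the limma adjusted p was under 0.05. Most WT points lie to the right of 0, led by Ugt2b38 at 2.56, and fewer points are filled in the other 3 genotypes.

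Fewer of these genes passed in the mutant genotypes. In QKO, 4 of the 46 were higher and 2 lower in villi than in crypts, beside 33.4% of all genes called. In TKO, 4 were higher and none lower, beside 15.4%, and in Rb, 8 were higher and 1 lower, beside 17.3%. Over the 21 genes that rose in WT villi, the median difference was 0.33 in QKO, 0.32 in TKO, 0.65 in Rb and 1.26 in WT, and 4, 4 and 7 of them passed in QKO, TKO and Rb. The 21 were chosen by the WT value, so these medians describe and test nothing. The difference between genotypes was tested for TKO and Rb against WT and is given further on. It was not tested for QKO against WT.

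Sult1b1 rose in all 4 genotypes: by 0.58 ± 0.19 in QKO (adjusted p = 0.025), 0.74 ± 0.19 in TKO (0.014), 1.02 ± 0.19 in Rb (0.0015) and the 1.33 in WT given above. Sult2b1 also passed in all 4, with 1.16 ± 0.30 in QKO, 0.96 ± 0.30 in TKO and 0.92 ± 0.30 in Rb. In WT both calls were kept whichever of the 6 arrays was left out, as was Sult1b1 in Rb, while Sult1b1 kept its call in 2 of 6 such fits in QKO and 4 of 6 in TKO, and Sult2b1 in 5 of 6 in QKO, 1 of 6 in TKO and 1 of 6 in Rb. Ugt2b38 rose by 3.10 ± 0.66 in QKO (adjusted p = 0.0011), with 7.08, 10.06 and 11.01 in QKO villi, against 5.83, 7.10 and 5.93 in QKO crypts. Its QKO groups overlapped slightly, since QKO villi 1 lay below QKO crypts 2. Gstk1 did not pass in the mutants, with differences of 0.45 in QKO, 0.65 in TKO and 0.80 in Rb (each ± 0.30, adjusted p between 0.066 and 0.27).

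Same-numbered crypt and villus arrays deviated together in QKO and TKO but not in Rb and WT. With a block for the number in QKO and TKO, an alternative added after the data were seen, 7 genes were higher and 5 lower in QKO villi, beside 37.3% of all genes, and 9 were higher in TKO villi, beside 20.8%. With each array centred on its median, 3 were higher and 4 lower in QKO villi, beside 6417 of all 18193 genes called. The QKO count fell to 3 without QKO villi 2 or QKO villi 3. The TKO count was 7 without TKO villi 2 and 0 without TKO villi 3 or TKO crypts 2. The Rb count was 3, 5, 4 and 2 without Rb villi 1, Rb villi 2, Rb crypts 1 and Rb crypts 2, the last being the array whose Rb1 level goes against its label. By Eif2s3y, Rb villi 1 and 3 were read as male and all Rb crypts as female, so sex and compartment are partly confounded in Rb.

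A group of glutathione transferases was lower in Rb villi than in WT villi. QKO villi, which also lack Rb, were not tested against WT villi. In Rb villi 9 of the 46 genes were lower than in WT villi and none higher, beside 14.8% of all genes called in either direction and 6.19% called lower. The median difference, Rb minus WT, was -0.26 over the 46 genes and -0.08 over all genes. Those called were 3 of 7 Gstm genes, Gstk1, Gsto1, the dim Gsto2, 2 of 4 Gstt genes and Ugt2a3, and no Sult, Gsta, Gstp or Mgst gene passed.

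Gstm4, a mu-class enzyme, had 8.57, 7.45 and 7.36 in Rb villi, against 9.19, 8.87 and 9.43 in WT villi. It was lower by -1.37 ± 0.31 (log2, adjusted p = 0.0038), with no overlap. Gstk1 had 10.88, 11.18 and 10.88 in Rb villi, against 12.11, 12.29 and 12.45 in WT villi, a difference of -1.31 ± 0.30 (adjusted p = 0.0038). Every Rb villus array of both genes lay below every WT villus array.

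Gsto1, an omega-class enzyme that reduces dehydroascorbate, had 12.68, 12.76 and 12.53 in Rb villi, against 13.10, 13.17 and 13.27 in WT villi. Although the difference was small, -0.53 ± 0.10, the arrays of each group were close together and it passed at an adjusted p of 0.00083. The second probe set of Gsto1 gave -0.26 and did not pass (adjusted p = 0.27 in the limma fit over every probe set). Gstt3, another theta-class gene, had 8.58, 8.62 and 8.58 in Rb villi, against 9.22, 9.42 and 9.36 in WT villi, a difference of -0.74 ± 0.15 (adjusted p = 0.0014). Gstm4, Gstk1, Gsto1 and Gstt3 kept their calls whichever villus array was left out.

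Gstm3, Gstm6 and Gstt1 were lower by -1.17, -1.03 and -0.90, and Ugt2a3 by -0.80 ± 0.21 (adjusted p = 0.012). Ugt2a3 had 11.25, 11.45 and 11.22 in Rb villi, against 11.84, 12.25 and 12.22 in WT villi. These 4 calls were each lost without Rb villi 3 or WT villi 3, that of Gstm3 also without Rb villi 2 or WT villi 1, that of Gstm6 also without Rb villi 2 or WT villi 2, and that of Ugt2a3 also without WT villi 2. Their highest adjusted p-values then were 0.15, 0.17, 0.16 and 0.056 for Gstm3, Gstm6, Gstt1 and Ugt2a3. The count of 9 fell to 5 without Rb villi 3 or without WT villi 3. Gstm1, at -1.32 ± 0.52 (adjusted p = 0.096), and Gsta2, at -1.52 ± 0.72 (adjusted p = 0.18), did not overlap between the groups and did not pass.

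Rb villi also carried more of the transcripts of dividing cells. The 3 measured markers of that list, of 4 listed, averaged 10.57 to 10.83 in Rb villi, against 7.94 to 8.29 in WT villi, while enterocyte markers averaged 13.37 to 13.80 in Rb villi and 13.79 to 13.94 in WT villi. The part of these cells in the lower transferase levels was not tested. Rb villi 1 and 3 were read as male and all WT villi as female, and with sex as a covariate 5 of the 46 genes were lower, among them Gstk1, Gstm4, Gsto1 and Gstt3, while the calls of Gstm3, Gstm6, Gstt1 and Ugt2a3 were lost. In crypts, none of the 46 genes passed between Rb and WT, where 0% of all genes were called, so Rb1 itself was not called. At an unadjusted p under 0.05 there were 2 of the 46 genes and 709 of all genes. Rb1 was 10.25 on Rb crypts 2 and 8.46 on WT crypts 3, against their labels. This comparison therefore cannot show that crypt levels were unchanged without Rb.

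In TKO villi, 5 of the 46 genes were lower and 1 higher than in WT villi, beside 9.77% of all genes called in either direction and 3.57% called lower. The median difference, TKO minus WT, was -0.26 over the 46 genes and -0.03 over all genes. After quantile normalization 4 were lower and none higher, beside 1998 of all 18193 genes called. Gstk1 had 10.49, 10.11 and 10.99 in TKO villi, against 12.11, 12.29 and 12.45 in WT villi, a difference of -1.76 ± 0.30 (adjusted p = 0.0005). The TKO arrays were spread over nearly a log2 unit, yet all lay below the WT arrays. Gstt1 had 10.41, 9.58 and 10.44 in TKO villi, against 11.28, 11.38 and 11.87 in WT villi, and was lower by -1.36 ± 0.26 (adjusted p = 0.0018). Both calls were kept whichever villus array was left out.

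Gstm6 was lower by -1.15 ± 0.31 (adjusted p = 0.018) and Ugt2b34 by -0.42 ± 0.11 (adjusted p = 0.014). The first call was lost without TKO villi 2, WT villi 2 or WT villi 3 (highest adjusted p = 0.14) and the second without WT villi 2 (0.056). Gstm4 was lower by -0.997 ± 0.31 (adjusted p = 0.045), though TKO villi 3, at 8.89, lay just above WT villi 2, at 8.87. The gene that rose was the pi-class Gstp3, with 8.56, 7.70 and 7.99 in TKO villi, against 7.20, 7.13 and 7.46 in WT villi. The groups did not overlap and the difference was 0.82 ± 0.24 (adjusted p = 0.031), a call lost without TKO villi 1, WT villi 1 or WT villi 2 and after quantile normalization. The count of 6 was 10 without TKO villi 1 and 2 without WT villi 2, and with sex as a covariate it was 3. Dividing-cell markers averaged 8.93 to 9.74 in TKO villi, against 7.94 to 8.29 in WT villi, with 1 of 3 called. Goblet markers averaged 12.13 to 12.64 in TKO villi, against 13.21 to 13.30 in WT villi, with 5 of 7 lower. Both counts stand beside 9.77% of all genes called. The part of dividing and goblet cells in the TKO values was not tested.

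Gstk1, Gstm4, Gstm6 and Gstt1 were lower in both TKO and Rb villi. Both comparisons share the WT villus arrays, so their values are set side by side only: -1.76 in TKO and -1.31 in Rb for Gstk1, -0.997 and -1.37 for Gstm4, -1.15 and -1.03 for Gstm6, and -1.36 and -0.90 for Gstt1. In TKO crypts none of the 46 genes passed against WT crypts, beside 4.73% of all genes called. At an unadjusted p under 0.05 there were 6 of the 46 and 3578 of all 18193 genes. Gstp3 came near there too, at 0.78 ± 0.24 (adjusted p = 0.062).

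**Figure D2:**
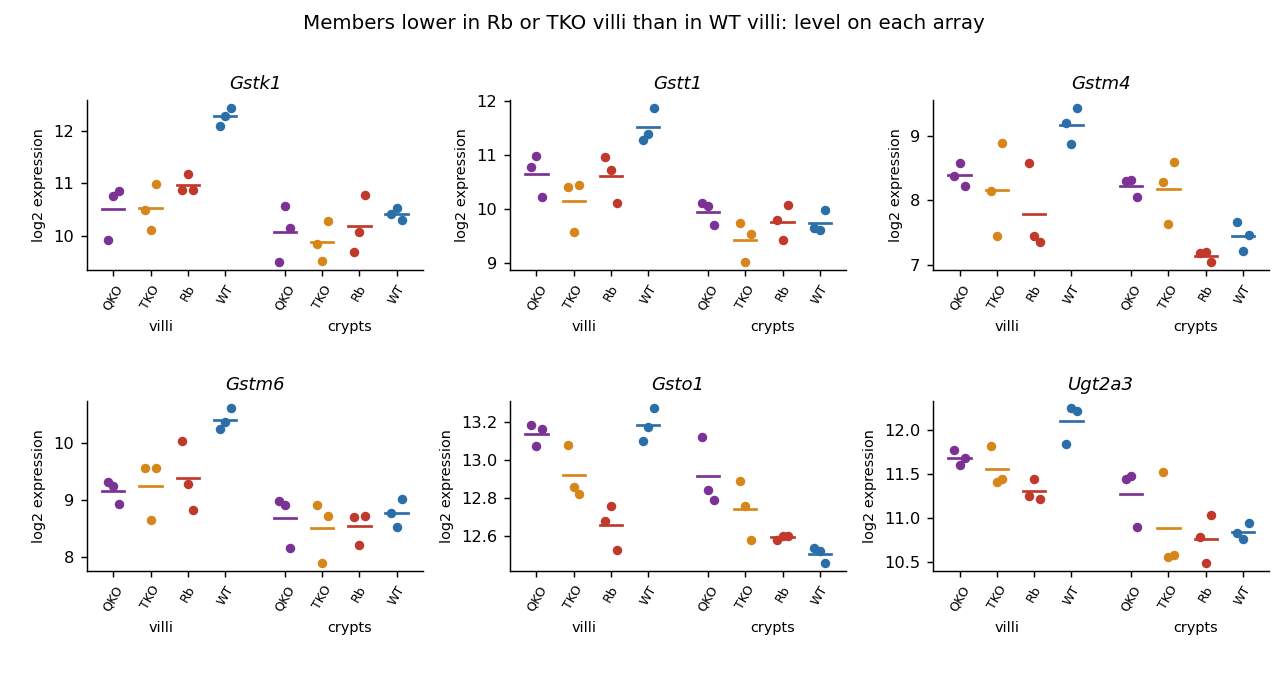
Log2 expression (y axis) of Gstk1, Gstt1, Gstm4, Gstm6, Gsto1 and Ugt2a3 on each array, with villi left of crypts and QKO, TKO, Rb and WT from left to right; points are arrays in replicate order and lines are group means. In Gstk1 and Gstt1 all WT villus arrays stand above every other array shown.

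**Figure D3:**
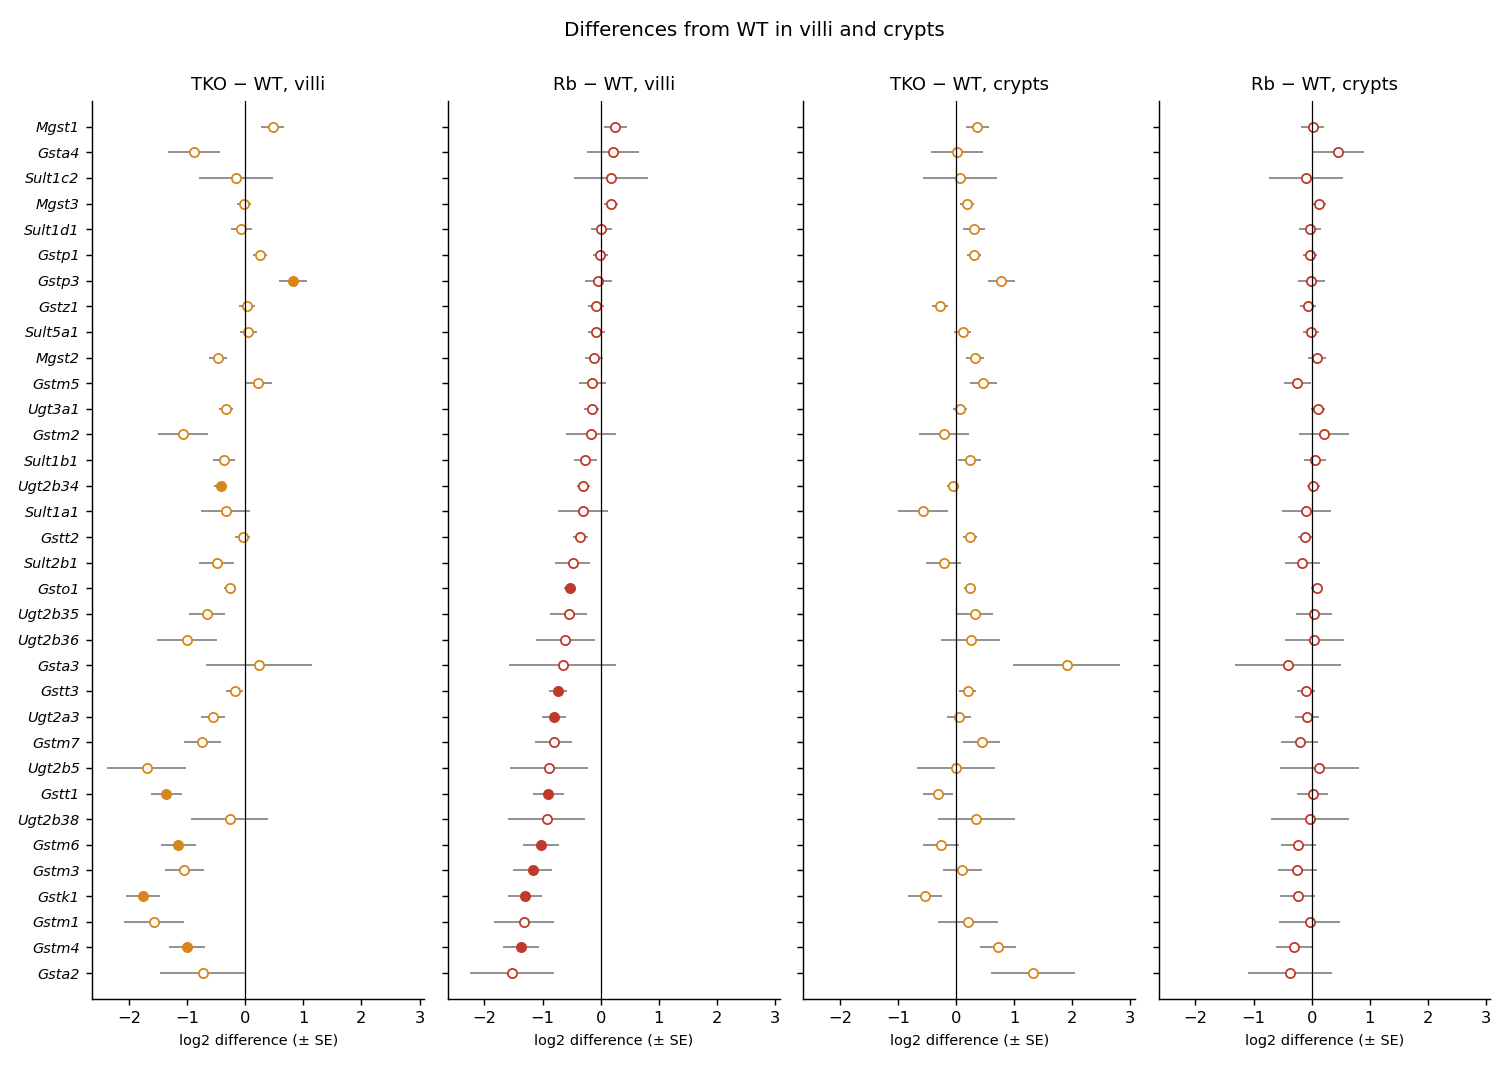
Log2 differences from WT (x axis, ± SE from the fit) of the 34 brighter conjugation enzymes (rows) for TKO and Rb villi and for TKO and Rb crypts, on 1 scale, with filled points where the limma adjusted p was under 0.05. Filled points occur in the villus panels alone, with Gstk1 at -1.76 in TKO villi and Gstm4 at -1.37 in Rb villi.

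The test of whether the genotype difference itself differed between villi and crypts passed for few genes. For Rb minus WT, 2 of the 46 genes passed, both lower, beside 5.22% of all genes, and the median over the 46 was -0.26 against -0.09 over all genes. Gsto1 differed between villi and crypts by -0.61 ± 0.14 (adjusted p = 0.012): it was -0.53 in villi and 0.09 in crypts. The second Gsto1 probe set gave -0.05 ± 0.19 (adjusted p = 0.92 in the limma fit over every probe set). The dim Gsto2, the neighbour of Gsto1 on chromosome 19, differed by -0.61 ± 0.16 (adjusted p = 0.029). The Gsto1 call was kept whichever of the 12 arrays was left out singly, but lost without the 2 crypt arrays whose Rb1 level goes against their labels, with sex as a covariate and with the mean of its probe sets. The count of 2 was 1 without Rb villi 2, Rb villi 3, WT villi 1, WT villi 3 or WT crypts 2.

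For TKO minus WT, 2 of the 46 genes passed, both lower, beside 3.43% of all genes, and the median was -0.38 over the 46 genes and -0.05 over all genes. Gstm4 gave -1.72 ± 0.44 (adjusted p = 0.033), being -0.997 in villi and 0.72 in crypts. Mgst2, a microsomal enzyme that also forms leukotriene C4, gave -0.79 ± 0.21 (adjusted p = 0.043), being -0.47 in villi and 0.32 in crypts. Both calls were often lost when 1 array was left out, with 4 of 12 such fits keeping Gstm4 and 3 of 12 keeping Mgst2, and the count was 0 without TKO villi 2, WT villi 1, WT villi 3, TKO crypts 1 or WT crypts 2. With the block in QKO and TKO, 9 of the 46 passed, all lower, beside 5.75% of all genes.

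The comparison of QKO with Rb asks what the absence of E2f1, E2f2 and E2f3 changes in tissue without Rb. In QKO crypts 10 of the 46 genes were higher than in Rb crypts and none lower, beside 17.2% of all genes called in either direction and 13.4% called higher. The median difference, QKO minus Rb, was 0.24 over the 46 genes and 0.05 over all genes. After quantile normalization 6 were higher and none lower, beside 3045 of all 18193 genes called. The share of higher genes among all calls was then 50.8%, against 78% for the values as deposited.

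Sult1c2, a cytosolic sulfotransferase, had 9.62, 8.46 and 7.35 in QKO crypts, against 6.23, 6.51 and 6.67 in Rb crypts. The QKO arrays were widely spread and all higher, and the difference was 2.01 ± 0.64 (adjusted p = 0.033). That call was lost when any of 5 of the 6 arrays was left out, QKO crypts 3 being the exception. Gstm7 had 8.60, 8.53 and 7.90 in QKO crypts, against 7.41, 6.88 and 7.06 in Rb crypts. It rose by 1.23 ± 0.32 (adjusted p = 0.01), kept whichever array was left out, but its second, dimmer probe set gave -0.30.

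Gstm5, the mu-class gene whose promoter is shown above, had 9.51, 10.20 and 9.86 in QKO crypts, against 9.07, 9.39 and 8.38 in Rb crypts. Its groups did not overlap, and it rose by 0.91 ± 0.23 (adjusted p = 0.01). Gstm4 rose by 1.08, Ugt2b35 by 1.07, Gstp3 by 0.77, Sult1d1 by 0.66, Gstt2 by 0.52 and Gsto1 by 0.32. Gstt3, which also passed, overlapped between the groups. The Gstt2 call was kept whichever array was left out. That of Gstm5 was lost without QKO crypts 2 or Rb crypts 3 (highest adjusted p = 0.077), and those of Gstm4, Ugt2b35, Gstp3, Sult1d1 and Gsto1 without QKO crypts 1, with highest adjusted p-values of 0.067, 0.084, 0.11, 0.094 and 0.16. Gstm4, Ugt2b35 and Gstp3 also lost the call without QKO crypts 2 or Rb crypts 3, Gstp3 and Gsto1 without Rb crypts 2, Sult1d1 and Gsto1 without Rb crypts 1, and Gsto1 without Rb crypts 3. All QKO crypts were read as male and all Rb crypts as female, so sex and genotype cannot be told apart here. With sex as a covariate 9 genes were called, but the sex estimate then came from other groups. The count of 10 fell to 3, 4, 6 and 3 without QKO crypts 1, QKO crypts 2, Rb crypts 1 and Rb crypts 3, and to 5 without the 2 crypt arrays whose Rb1 level goes against their labels.

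In villi, 6 of the 46 genes were higher and 2 lower in QKO than in Rb, beside 22.2% of all genes called. With arrays centred on their medians there were 5 higher and 4 lower, beside 4178 of all 18193 genes called. With sex as a covariate there were 12 higher and 2 lower. Ugt2b38 had the 7.08, 10.06 and 11.01 in QKO villi given above, against 6.51, 5.71 and 6.01 in Rb villi. Although QKO villi 1 lay near the Rb arrays, the groups did not overlap, and the difference was 3.31 ± 0.66 (adjusted p = 0.0011), kept whichever array was left out.

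Gstm5 had 9.42, 10.04 and 10.10 in QKO villi, against 9.14, 8.77 and 8.66 in Rb villi, and rose by 0.996 ± 0.23 (adjusted p = 0.0039). Gstt3, Gsto1 and Gstt2 rose by 0.58, 0.48 and 0.45. The 2 genes that fell were microsomal enzymes: Mgst2 had 11.87, 11.61 and 11.38 in QKO villi, against 12.67, 12.62 and 12.72 in Rb villi, a difference of -1.05 ± 0.15 (adjusted p = 5.4e-05). Mgst3, which also has glutathione peroxidase activity, gave -0.45 ± 0.12 (adjusted p = 0.01). Its second, dimmer probe set gave -0.135 ± 0.16 (adjusted p = 0.63 in the limma fit over every probe set). The calls of Gstm5, Gstt3, Gsto1, Mgst2 and Mgst3 were kept whichever array was left out, and that of Gstt2 was lost without Rb villi 2 (adjusted p = 0.056).

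Set against TKO, in which the same E2f genes are absent, QKO villi had 2 of the 46 genes higher and 1 lower, beside 6.68% of all genes. With quantile normalization 1 was higher and 1 lower, beside 1295 of all 18193 genes called. With arrays centred on their medians 1 was higher and 1 lower, beside 1243. Gsta4 had 12.19, 12.17 and 11.40 in QKO villi, against 11.40, 9.94 and 9.82 in TKO villi. QKO villi 3 and TKO villi 1 were almost equal, and the difference of 1.54 ± 0.44 (adjusted p = 0.04) kept its call in 2 of 6 fits without 1 array, being lost without QKO villi 1, QKO villi 2, TKO villi 2 or TKO villi 3. Ugt2b38 was higher by 2.65 ± 0.66 (adjusted p = 0.019), with overlap, since TKO villi 3 reached 7.90, and this call was lost without QKO villi 2, QKO villi 3, TKO villi 1 or TKO villi 2. Mgst2 had 12.49, 12.20 and 12.26 in TKO villi and was lower in QKO villi by -0.70 ± 0.15 (adjusted p = 0.008), with no overlap, a call lost without QKO villi 3 (adjusted p = 0.054). The count of 3 fell to 1 without QKO villi 3 or TKO villi 2, and to 0 without QKO villi 3 and QKO crypts 2 together, the arrays with the highest medians. In crypts none of the 46 passed between QKO and TKO, beside 1.61% of all genes, and at an unadjusted p under 0.05 there were 8 of the 46 and 3147 of all 18193 genes.

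**Figure D4:**
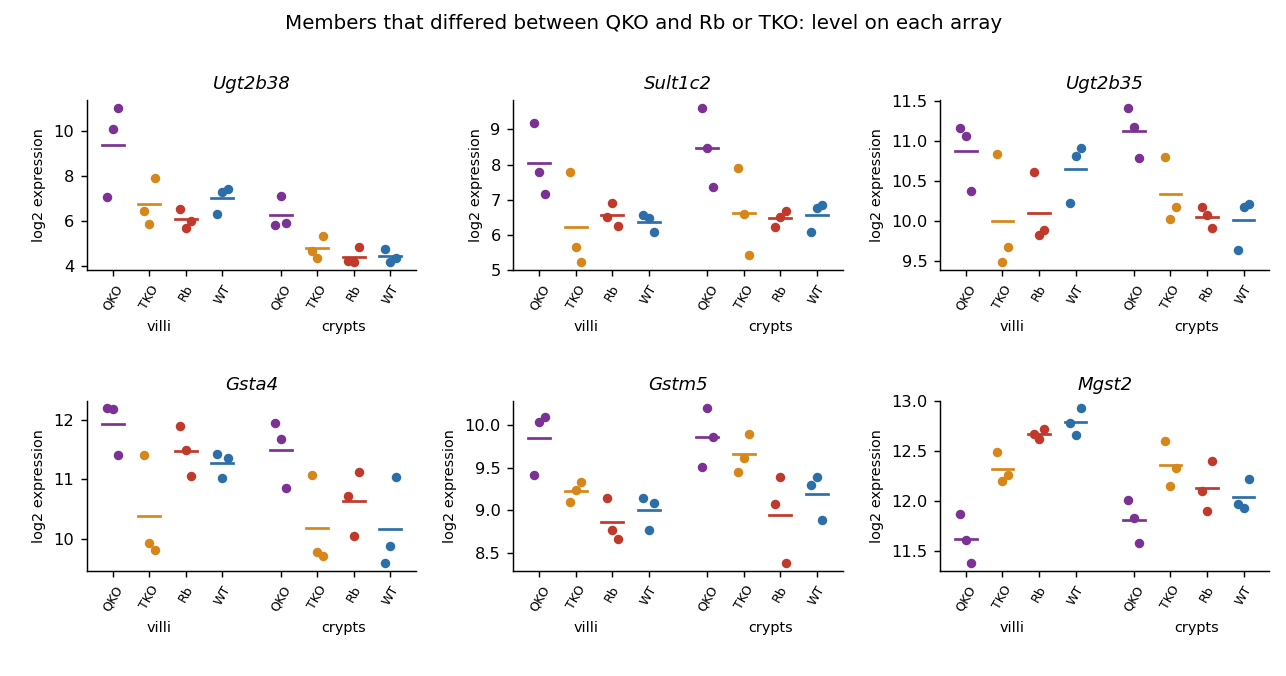
Log2 expression (y axis) of Ugt2b38, Sult1c2, Ugt2b35, Gsta4, Gstm5 and Mgst2 on each array, with villi left of crypts and QKO, TKO, Rb and WT from left to right; points are arrays in replicate order and lines are group means. Ugt2b38 reaches 11.01 on QKO villi 3, and Mgst2 is lower on all 3 QKO villus arrays than on any other villus array.

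Other transcripts moved with QKO. The 5 markers of the proximal small intestine averaged 9.47 to 9.92 in QKO villi, against 6.78 to 7.55 in villi of the other 3 genotypes, and 8.0 to 8.52 in QKO crypts, against 6.44 to 7.20 in the other crypts. Markers of pancreatic acinar cells, 4 of 5 listed being measured, averaged 8.70, 5.51 and 8.90 on QKO crypts 1, 2 and 3 and at most 5.47 on every other array. The T cell markers averaged 10.39 to 11.13 in QKO villi and 9.05 to 10.04 in TKO, Rb and WT villi. Of these markers, 1 of 5 was called between QKO and Rb villi, beside 22.2% of all genes. Beside the same 22.2%, QKO villi had 3 of 5 proximal markers higher than Rb villi (median difference 3.21) and 2 of 4 distal small intestine markers lower (-0.52). They also had 4 of 6 enteroendocrine markers higher (2.3), 2 of 3 macrophage markers higher (1.27), 3 of 3 dividing-cell markers lower (-2.31) and 5 of 7 goblet markers lower (-0.77). Against Rb crypts, where 17.2% of all genes were called, QKO crypts had 6 of 7 goblet markers lower (-1.12) and 2 of 5 T cell markers lower (-1.02). In the same comparison 2 of 6 enteroendocrine markers were higher (0.53), and 1 of 3 dividing-cell markers was higher and 2 lower (-1.46). The part of these cells and of the position along the intestine in the QKO values was not tested.

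For many of these genes 1 array number was highest of the 3 in both compartments. This was array 1 for 17 of the 34 brighter genes in QKO, 16 in TKO and 8 in Rb, and array 3 for 13 in WT. Over the 12929 brighter genes of the whole table, the same arrays were highest in both compartments for 14.1% in QKO, 18.4% in TKO, 8.48% in Rb and 9.9% in WT. These arrays were picked as those with the most such members, so the counts are a description. In TKO, Gsta2 had 10.13, 7.65 and 7.55 in villi and 9.96, 7.21 and 7.34 in crypts. Ugt2b5 had 10.93, 8.44 and 8.70 in TKO villi and 10.42, 7.95 and 8.42 in TKO crypts. Array 1 exceeded the others by well over a log2 unit in both compartments of both genes, and it is also the TKO array read as female. Sult1c2 followed the same order in QKO, with 9.18, 7.79 and 7.16 in villi and 9.62, 8.46 and 7.35 in crypts. These spreads enter the standard errors given above, and what distinguishes these arrays was not tested.

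**Figure D5:**
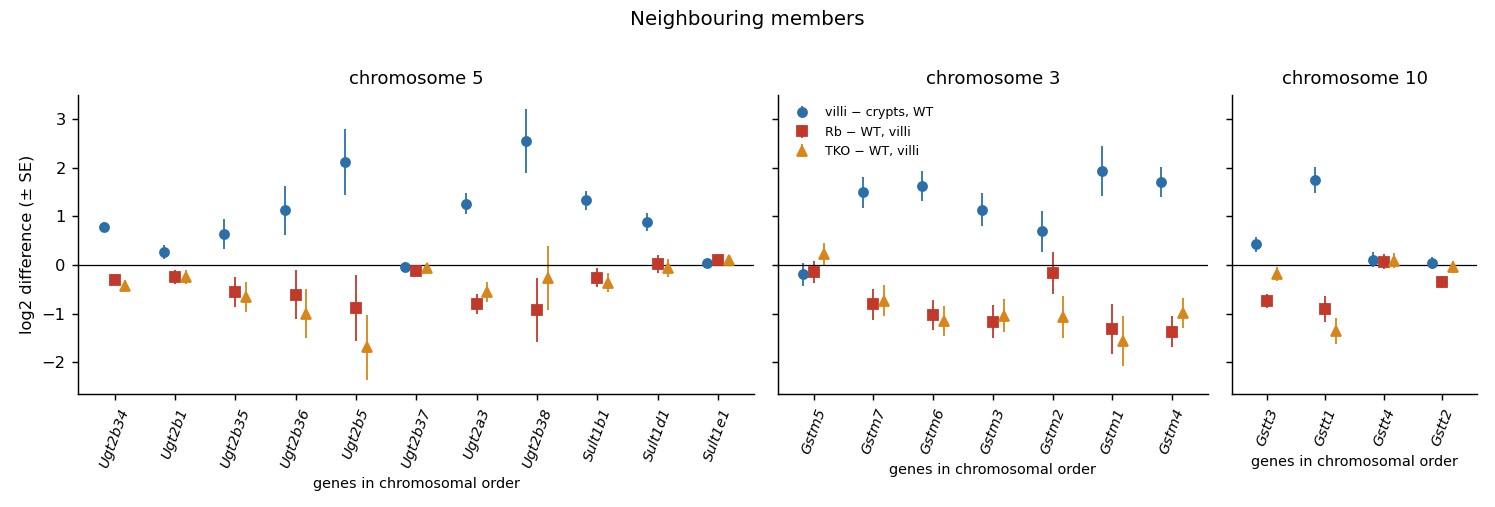
Log2 differences (y axis, ± SE from the fit) of conjugation enzymes in their chromosomal order in the clusters on chromosomes 5, 3 and 10, for villi minus crypts in WT (circles), Rb minus WT in villi (squares) and TKO minus WT in villi (triangles). On chromosome 3, Gstm5 at one end stands at -0.19 for WT villi minus crypts, while Gstm1 reaches 1.94.

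Neighbours in the Gstm cluster did not share one pattern. Gstm5 gave -0.19 between WT villi and crypts and -0.14 between Rb and WT villi, where Gstm4, at the other end, gave 1.72 and -1.37. On chromosome 10, Gstt1 gave 1.75 between WT villi and crypts, and Gstt2 0.03. No test of the difference between neighbouring genes was made.

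The measured genes around the transferases were counted from lists of their substrates, pumps and regulators, whose counts in WT villi against WT crypts stand beside the 37.4% of all genes called there. Of 8 measured genes of glutathione synthesis and recycling, 1 was higher and 3 lower in WT villi. Gsr, the reductase that regenerates glutathione, had the largest difference, at -1.80 ± 0.18 (adjusted p = 1.2e-07), and Gclm, the modifier subunit of the first enzyme of glutathione synthesis, rose by 1.26 ± 0.21. In Rb villi 4 of the 8 were higher and none lower than in WT villi, beside 14.8% of all genes called, among them Gsr at 1.30 ± 0.18 (adjusted p = 1.8e-05) and Chac1, which degrades glutathione, at 1.55 ± 0.30. In TKO villi 1 of 8 was higher, beside 9.77% of all genes, Gsr at 0.98 ± 0.18. Unlike most of the transferases that differed, Gsr was thus below its crypt level in WT villi and above its WT level in TKO and Rb villi.

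Of 8 measured genes that supply the donors of glucuronidation and sulfation, 4 were higher and 1 lower in WT villi, led by Slc35d1, which carries UDP-sugars into the endoplasmic reticulum, at 1.55 ± 0.24. None passed in Rb or TKO villi against WT villi. Of the 7 conjugate exporters, 2 were higher and 1 lower in WT villi. Abcc2, the apical pump for glutathione and glucuronide conjugates, rose by 1.97 ± 0.30 (adjusted p = 2.6e-05) in WT villi and was lower by -1.43 ± 0.30 (adjusted p = 0.002) in Rb villi than in WT villi. It was the only 1 of the 7 exporters called between Rb and WT villi, beside 14.8% of all genes. In QKO, 4 of 7 exporters were higher than in Rb in crypts and 4 of 7 in villi, beside 17.2% and 22.2% of all genes called, with Abcc4 at 1.44 ± 0.27 in crypts and Abcc2 at 1.495 ± 0.30 in villi.

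Of 13 measured sensors and regulators, 5 were higher in WT villi than in WT crypts, with the xenobiotic receptor Nr1i2 at 1.38 ± 0.24. Ahr, the aryl hydrocarbon receptor, was lower in TKO than in WT villi by -0.83 ± 0.20 (adjusted p = 0.011). It was the only 1 of the 13 called in that comparison, beside 9.77% of all genes. Of 12 other target genes of Ahr and Nrf2, 4 were higher and 1 lower in WT villi, with Cyp1a1, the classic Ahr target, at 4.09 ± 0.96 (adjusted p = 0.0019). Cyp1a1 was also lower in TKO than in WT villi, by -3.04 ± 0.96 (adjusted p = 0.048). It was the only 1 of the 12 called there, beside the same 9.77%. Between QKO and Rb crypts 2 of the 12 were called, both higher in QKO, beside 17.2% of all genes. The larger difference was that of Ephx1, an epoxide hydrolase, at 2.21 ± 0.46 (adjusted p = 0.0022). Of 8 measured other conjugation enzymes, 2 were higher and 1 lower in WT villi, and Tpmt, a thiopurine methyltransferase, was higher in QKO than in Rb crypts by 1.97 ± 0.38 (adjusted p = 0.0012). Tpmt was the only 1 of the 8 called between QKO and Rb crypts. The calls of single genes named from these lists were not followed with arrays left out or with sex as a covariate.

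For 11 of the 46 genes a second probe set of the same gene was present. Over 22 combinations of a called gene, a comparison and another of its probe sets, 21 had the same sign and 11 were called in the same direction, and none was called in the other. The exception in sign was Gstm7 between QKO and Rb crypts, given above.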

How the data were processed

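RNA of 24 arrays was analysed from the deposited table of log2 expression values, 1 per probe set and array. How the authors summarised and scaled these log2 values before deposit was not given in the sources used here. Per the labels' protocols, 3 ug of Trizol-extracted total RNA a sample was turned into biotinylated target. Array medians were 4.97 to 5.08 apart from QKO crypts 2 (5.17) and QKO villi 3 (5.26), and no 2 arrays held identical values. Of 45101 probe sets, 34945 had 1 gene symbol, 932 several and 9160 none here, and 64 were controls; symbols of 34741 were updated through RefSeq gene records. Differences were fitted with limma 3.58.1 in R 4.3.3 over 18193 genes with 8 group means, an intensity trend and Benjamini-Hochberg adjustment per comparison, and genes were called at an adjusted p under 0.05. All groups shared 1 spread with 16 residual degrees of freedom, and the number of arrays limits the precision. Figures were drawn with matplotlib 3.10.9.

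The genes and lists were chosen with earlier results of these data known. Named genes were those called without overlap and with a group mean above 5.05, up to 12 a comparison by size, together with the brightest gene of each family, the called gene of each family with the largest difference between genotypes, and the largest called difference of each list. Gstz1, Gsto2, Gclm, Gsr in Rb villi, Ugt2b38 in QKO villi against crypts, Gstm4 in TKO villi, Gstt3 in crypts and values that did not pass were named after they were seen. Pairing by array number was checked on deviations from group means: same-numbered crypt and villus arrays correlated at 0.55, 0.25 and 0.37 in QKO and 0.61, 0.55 and 0.64 in TKO, against 0.06, -0.01 and -0.24 in Rb and 0.01, 0.13 and 0 in WT, so the numbers were taken as pairs in QKO and TKO alone, a pairing the labels do not state. Sex was read from Eif2s3y. By that reading Rb villi 1 and 3 were male and Rb crypts 1 and 3 female, so these same-numbered Rb arrays were not from 1 animal. Alternatives were other scaling, filters, probe set summaries, weights, blocks, covariates and left-out arrays.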

Additional observations from a re-analysis of the deposited data

Results flagged for a closer look

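The difference between genotypes itself differed between villi and crypts for 4 of the conjugation enzymes, by the limma test of that difference. These were 2 of 46 for Rb minus WT, beside 5.22% of all genes, and 2 of 46 for TKO minus WT, beside 3.43%. Rb minus WT differed by -0.61 ± 0.14 for Gsto1 (SE, adjusted p = 0.012) and by -0.61 ± 0.16 for the dim Gsto2 (adjusted p = 0.029), lower in villi than in crypts in both. The second Gsto1 probe set gave -0.05 ± 0.19 (adjusted p = 0.92 in the limma fit over every probe set). TKO minus WT differed by -1.72 ± 0.44 for Gstm4 (adjusted p = 0.033) and by -0.79 ± 0.21 for Mgst2 (adjusted p = 0.043), again lower in villi. The count was 0 for Rb minus WT with sex as a covariate, and without WT crypts 3 and Rb crypts 2. For TKO minus WT it was 0 without TKO villi 2, WT villi 1, WT villi 3, TKO crypts 1 or WT crypts 2. Single values were not screened for outliers within groups of 3 arrays.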

How the results depend on the processing

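Of the 46 genes, the counts that moved by more than 1.5 times are given here, and the causes were not tested. These counts stand without those of all genes under the same setting. A moved count alone thus does not set the 46 genes apart from the rest. After quantile normalization, 1 gene passed for TKO minus WT in crypts, 6 for QKO minus Rb in crypts and 1 for the difference of TKO minus WT between compartments, which was also 1 with arrays centred on their medians. Neither scaling moved the median of all genes by more than 0.1. With dim genes removed, 1 passed for TKO minus WT in crypts and 1 for the difference of Rb minus WT. Averaging a gene's probe sets gave 3, and testing every probe set 1, for TKO minus WT in crypts. Fitting only the groups compared gave 2 for villi minus crypts in QKO, 6 for QKO minus Rb in crypts and 18 for Rb minus WT in villi. It gave 10 for TKO minus WT in villi, 0 for QKO minus TKO in villi and 4 for the difference of Rb minus WT. Array weights gave 15 for villi minus crypts in Rb, 1 for TKO minus WT in crypts, 5 for QKO minus Rb in crypts, 1 for QKO minus TKO in crypts, 14 for Rb minus WT in villi, 15 for TKO minus WT in villi and 5 for the difference of TKO minus WT. With the replicate number as a block within each genotype, the counts were 20, 10 and 11 for villi minus crypts in Rb, TKO and QKO. They were 7 and 12 for the differences of Rb and of TKO minus WT. Comparisons between genotypes instead used blocks for the number shared by all genotypes. The counts were then 1 each for TKO minus WT and QKO minus TKO in crypts and 5 for QKO minus TKO in villi. Rb villi 1 and 3 and Rb crypts 1 and 3 were read as different sexes, so the counts of 20 and 7 rest on numbers that do not pair animals. With the block in TKO and QKO alone, added after the data were seen, the counts were 9 and 12 for villi minus crypts in TKO and QKO and 9 for the difference of TKO minus WT. Of 62 calls of named genes, the blocks by replicate number ended none. Fitting only the groups compared ended 15, sex as a covariate 13 and removal of the pair of crypt arrays that go against their labels 13. Removal of the pair of QKO arrays with the highest medians ended 11, quantile normalization 10 and array weights 6. Averaging probe sets ended 5, centring on medians 4, and testing every probe set or no intensity trend 1 each. With sex as a covariate the counts were 2 each for TKO minus WT and QKO minus TKO in crypts, 5 for Rb minus WT, 3 for TKO minus WT, 14 for QKO minus Rb and 5 for QKO minus TKO in villi, and 0 for the difference of Rb minus WT. Without WT crypts 3 and Rb crypts 2 they were 2 for villi minus crypts in Rb, 5 for QKO minus Rb in crypts, 0 for the difference of Rb minus WT and 1 for that of TKO minus WT. Without QKO crypts 2 and QKO villi 3 they were 2 for villi minus crypts in QKO, 1 for TKO minus WT in crypts, 4 for QKO minus Rb in crypts and 0 for QKO minus TKO in villi. Leaving out 1 array at a time gave 2 to 12 for villi minus crypts in Rb, 0 to 7 in TKO, 3 to 6 in QKO and 17 to 22 in WT. In crypts it gave 0 to 0 for Rb minus WT, TKO minus WT and QKO minus TKO, and 3 to 13 for QKO minus Rb. In villi it gave 5 to 11 for Rb minus WT, 2 to 10 for TKO minus WT, 6 to 11 for QKO minus Rb and 1 to 4 for QKO minus TKO, and for the differences 1 to 2 for Rb and 0 to 3 for TKO minus WT. Of the 62, 27 were kept whichever array was left out and 35 were lost at least once, and none reversed under any alternative.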
